A study of Homo sapiens with 6 samples.

Results

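The mitochondrial ribosomal proteins are the protein subunits of the ribosome inside mitochondria, and their genes were chosen here by name: every gene whose symbol on the array is MRPL or MRPS followed by a number and at most one letter. The rule found 75 of the 19775 genes measured, 48 named for the large subunit (MRPL) and 27 named for the small subunit (MRPS), on 140 of 54675 probe sets. The cells were NTERA2/D1, a teratocarcinoma line established from a human testis tumour, and their messenger RNA was measured on 3 arrays after siRNA against VAMP7 (knockdown) and on 3 arrays after a nonspecific scrambled siRNA (control). All cells were transfected 24 h after plating and were harvested for total RNA at 72 h of transfection, so the control cells were transfected as well. The comparison asks which transcripts differ when VAMP7 is lowered. The titles call the samples biological replicates but do not say whether they were separate cultures, so the p-values may reflect technical spread alone.

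The mitochondrial ribosome translates the few messenger RNAs encoded by mitochondrial DNA, all of which specify core subunits of the respiratory chain and the ATP synthase. Its protein subunits are encoded in the nucleus, made in the cytosol and imported, and they join ribosomal RNA that is transcribed inside the organelle. Many have a counterpart in the bacterial ribosome, while others occur only in mitochondria, and loss of several of them is known to cause respiratory chain disease in people. Their promoters commonly carry sites for the transcription factors NRF1, GABP (of the ETS family) and YY1.

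Promoters were available for 67 of the 75 genes in RefSeq (GRCh38.p14), from 250 bases before to 50 bases after a start position of the gene. In several members, MRPL44 among them, that position lay inside the gene and not at its outer end. Searched on both strands, the ETS motif CCGGAAG was in 28 of the 67 (41.8%), against 10.7% of 27305 promoters of all genes and 14.2% of 15843 promoters of protein-coding genes. The YY1 motif AAGATGGCG was in 12 (17.9%), against 1.85% of all and 2.74% of protein-coding promoters. The NRF1 motif CGCNTGCGC, where N is any base, was in 13 (19.4%), against 8.05% and 11%. At least 1 of the 3 motifs was in 43 of the 67, and 24 had none of them in the window. The ETS and YY1 motifs can share bases, and did so in 0 members. A match describes the letters and is not a measured binding site. The 4 stretches below are the 250 bases before the start of the member with the lowest log2 fold change holding each motif there, and of the highest holding the ETS motif, among windows that overlap no gene. They were chosen after the expression values were seen, they run 5′ to 3′ on the strand of the gene, and the capitals mark the motif.
MRPL52: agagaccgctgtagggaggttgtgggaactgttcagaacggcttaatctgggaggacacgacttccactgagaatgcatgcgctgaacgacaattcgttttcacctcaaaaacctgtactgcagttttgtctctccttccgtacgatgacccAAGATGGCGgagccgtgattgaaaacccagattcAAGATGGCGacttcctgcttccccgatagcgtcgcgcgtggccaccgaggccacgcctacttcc
MRPL33: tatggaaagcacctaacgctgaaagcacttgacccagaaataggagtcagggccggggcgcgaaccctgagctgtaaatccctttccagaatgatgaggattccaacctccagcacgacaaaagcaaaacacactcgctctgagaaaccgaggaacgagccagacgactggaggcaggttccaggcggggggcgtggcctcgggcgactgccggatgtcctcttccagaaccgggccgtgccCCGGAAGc
MRPL22: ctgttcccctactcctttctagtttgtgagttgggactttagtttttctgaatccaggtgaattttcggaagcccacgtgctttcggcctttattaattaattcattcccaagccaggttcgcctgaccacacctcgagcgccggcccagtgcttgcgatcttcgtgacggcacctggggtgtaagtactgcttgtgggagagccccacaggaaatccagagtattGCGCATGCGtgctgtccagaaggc
MRPL38: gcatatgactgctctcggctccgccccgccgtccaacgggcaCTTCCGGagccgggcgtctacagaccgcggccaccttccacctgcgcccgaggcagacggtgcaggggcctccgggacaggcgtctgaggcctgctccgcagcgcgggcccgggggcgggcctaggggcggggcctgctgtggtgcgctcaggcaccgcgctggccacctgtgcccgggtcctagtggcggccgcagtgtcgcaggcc
The stretch of MRPL52 lies at chr14:22829637-22829886 on the plus strand and holds the YY1 motif from positions -98 and -64 relative to the start. That of MRPL33 lies at chr2:27771469-27771718 on the plus strand, with the ETS motif from position -8. That of MRPL22 lies at chr5:154940823-154941072 on the plus strand, with the reverse complement of the NRF1 motif from position -24. That of MRPL38 lies at chr17:75904885-75905134 on the minus strand, with the reverse complement of the ETS motif from position -208. In the full window MRPL52 also held the ETS motif, and MRPL22 and MRPL38 also held the YY1 motif. Those matches do not lie wholly within the printed stretches, but they enter the counts and medians. Members with and without the ETS motif had median log2 fold changes of -0.11 and -0.08 between knockdown and control. The medians were -0.12 with and -0.10 without the YY1 motif, and -0.08 with and -0.10 without the NRF1 motif.

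VAMP7, a SNARE protein that drives fusion of late endosomal vesicles, read 136.8, 175.4 and 148.6 intensity units in knockdown replicates 1, 2 and 3, against 2487, 2617 and 2741 in the control replicates. Its log2 fold change was -3.71 (SE 0.11, limma adjusted p = 8.65e-05), and 5.87% of the control mean remained. Its groups were far apart, and it was the only one of 19775 genes past an adjusted p of 0.05 (0.00506% of genes). The first knockdown array was unlike the other 5, with a mean correlation of 0.988 with them against 0.990 to 0.991 for the rest. Most counts of members and of gene groups below 0 are therefore given with and without it. The non-overlap counts of a subunit or list and the counts over probe sets are given with it only. So are the counts with MRPS30 and MRPS18A taken as large subunit genes. Of 13 embryonal carcinoma markers measured, 12 lay at or above the median gene in signal, while 0 of 4 leukocyte and 0 of 4 muscle markers did. Among fibroblast markers 2 of 6 did, and among endothelial markers 2 of 4. The ratio of 3′ to 5′ signal for ACTB, a sign of RNA quality, was 2.73, 2.31 and 2.45 in knockdown and 2.46, 2.27 and 3.43 in control, and its part in the results was not tested.

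The mitochondrial ribosomal protein genes lay a little lower in knockdown as a group, and no single member passed the test. Of the 75, 59 had a log2 fold change below 0 (78.7%), against 49.2% of all genes, 49.9% of genes with median signal or more and 54.1% of the brightest 25% of genes. The median change was -0.095 on the log2(intensity + 50) scale, against 0.003 over all genes, and the members ran from -0.54 to 0.17. No member reached an adjusted p of 0.05 in limma, where the lowest was 0.64. At an unadjusted p under 0.05, 7 members were lower in knockdown and 0 were higher. That made 9.33% of the members lower, against 3.03% of all genes and 2.53% of genes with median signal or more, while 3.63% of all genes were higher. In 18 members every knockdown array lay below every control array (24.0%), against 6.29% of all genes, 7.83% of genes with median signal or more and 9.93% of the brightest 25% of genes, and in 2 members (2.67%) every knockdown array lay above, against 6.68% of all genes. All 75 members were at or above the median gene in signal. Without knockdown replicate 1, 51 of the 75 (68.0%) lay below 0, against 51.5% of all genes, and the median was -0.050. In that fit 3 of 75 (4%) were lower at an unadjusted p under 0.05, near the 3.19% of all genes. Without that array 21 members (28.0%) had the remaining knockdown arrays below all controls, against 12.4% of all genes. In RNA from whole cultures, less RNA of a gene per cell and fewer cells that express it cannot be told apart.

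**Figure D1:**
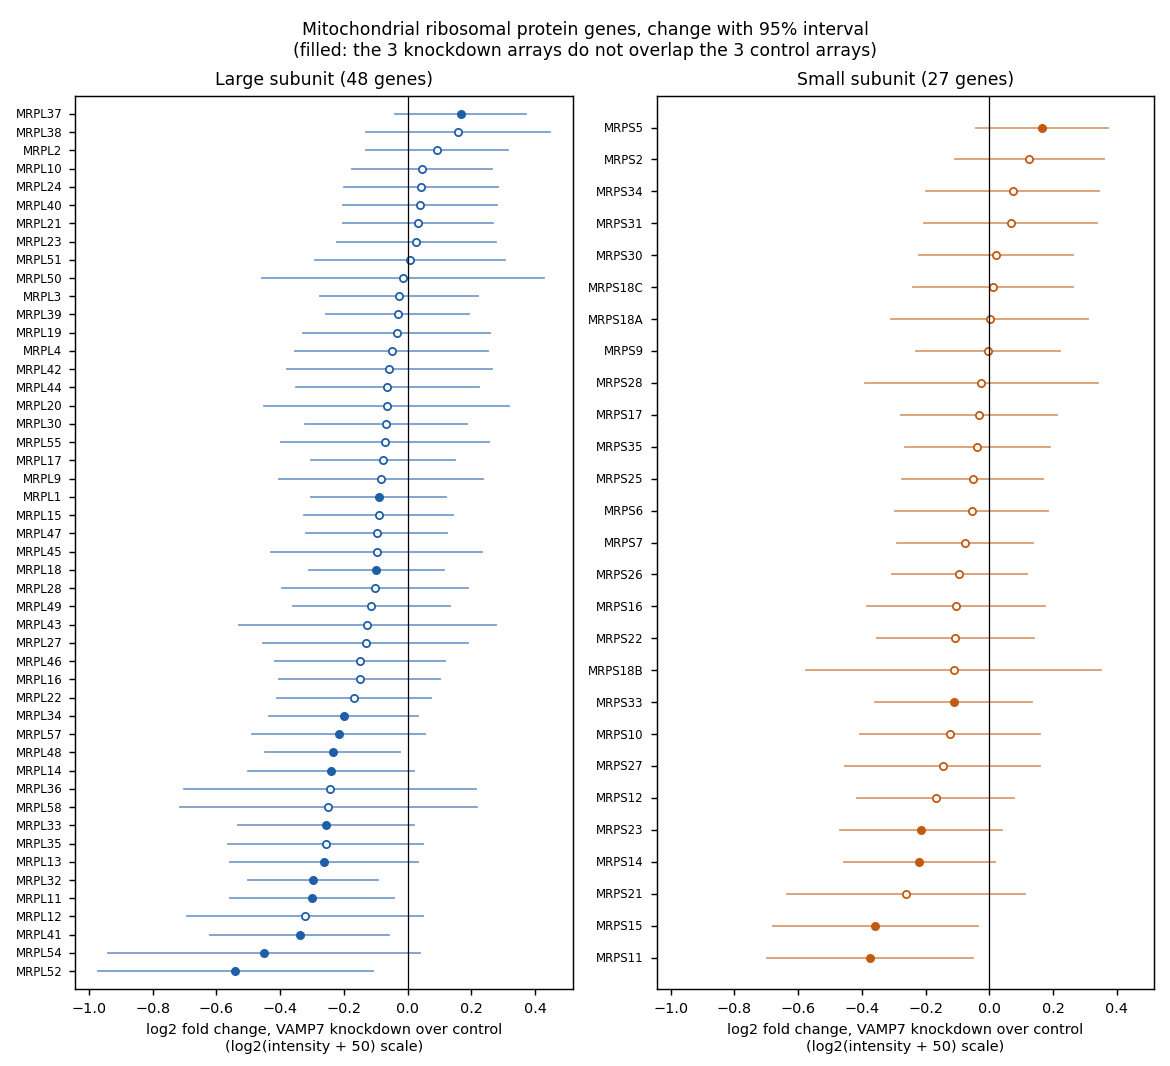
Log2 fold change of knockdown over control for each of the 48 large and 27 small subunit genes, with the 95% interval from limma. Filled points are members whose 3 knockdown arrays and 3 control arrays do not overlap. Most points lie left of 0, and the intervals of 7 members lie wholly below 0.

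The large subunit, which carries the peptidyl transferase centre, held the lowest values of the members, those of MRPL52 and MRPL54. Of its 48 genes 39 lay below 0, and the median was -0.097. In 13 (27.1%) the groups did not overlap with knockdown lower, against 6.29% of all genes and 9.93% of the brightest 25% of genes. In 1 (2.08%) they did not overlap with knockdown higher, against 6.68% of all genes. Without knockdown replicate 1, 33 of the 48 lay below 0 and the median was -0.051. MRPL32 has a bacterial counterpart and is matured by the m-AAA protease of the inner membrane, as known from yeast and mouse. It read 5744, 6121 and 5885 in knockdown, against 7106, 7407 and 7319 in control. All 3 knockdown arrays lay below all 3 control arrays, by a gap of 13.5% of the control mean. Its log2 fold change was -0.30 (SE 0.09), with an unadjusted limma p of 0.0111, the smallest of the members, and an adjusted p of 0.64.

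MRPL52, a subunit found only in mitochondria, read 1194, 1835 and 1870 in knockdown and 2178, 2562 and 2332 in control. Its knockdown mean was 69.3% of the control mean, the lowest ratio of the members, at 1633 ± 381 against 2357 ± 193 (SD, n = 3 each). The first knockdown array was far below the other knockdown arrays, and all 3 lay below control. The log2 fold change was -0.54 (SE 0.18, limma adjusted p = 0.709), and -0.34 without the first knockdown array. The promoter of this gene is the one printed above with the YY1 motif.

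MRPL41, also specific to mitochondria, read 2596, 3189 and 3274 in knockdown and 3655, 3789 and 4006 in control, with no overlap and a log2 fold change of -0.34 (SE 0.12, limma adjusted p = 0.721). MRPL11 is the counterpart of the bacterial protein at the base of the stalk that binds translation factors. It read 2701, 2948 and 2721 in knockdown, against 3312, 3195 and 3867 in control, with a log2 fold change of -0.30 (SE 0.11, limma adjusted p = 0.723). MRPL48, a mitochondria-specific protein of the central protuberance, read 1713, 1862 and 1882 in knockdown and 2139, 2145 and 2163 in control. The mean was 1819 ± 92.1 in knockdown and 2149 ± 12.5 in control (SD, n = 3 each), and the groups were separated by a gap of 12% of the control mean. This gave a log2 fold change of -0.24 (SE 0.09, limma adjusted p = 0.728).

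MRPL12, the counterpart of the bacterial stalk protein that also binds the mitochondrial RNA polymerase, read 1683, 1662 and 2171 in knockdown, against 2136, 2063 and 2733 in control. The third knockdown array lay above 2 control arrays, so the groups overlapped. The change was -0.32 on the log2 scale (SE 0.16, limma adjusted p = 0.772), and -0.20 without control replicate 3. MRPL10, which anchors the stalk, lay near 0 at 0.05.

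Of the large subunit genes above 0, MRPL37 had the smallest p. This mitochondria-specific protein read 4734, 4560 and 4740 in knockdown and 4107, 4336 and 4051 in control, with no overlap, and was the only large subunit gene with all knockdown arrays above all control arrays. Its mean was 4678 ± 102 in knockdown and 4165 ± 151 in control (SD, n = 3 each). That is a log2 fold change of 0.17 (SE 0.09, limma adjusted p = 0.787). MRPL38, of the central protuberance, read 513, 602 and 642 in knockdown and 484, 582 and 492 in control, which overlapped, at a log2 fold change of 0.16, or 0.093 without knockdown replicate 3. MRPL2, the counterpart of a protein beside the peptidyl transferase centre, was at 0.09, and MRPL24 at 0.04. Among the probe sets with the strongest signal, MRPL51 was at 0.01, MRPL3 at -0.03 and MRPL15 at -0.09. Of the dimmest, MRPL43 was at -0.13 with all its knockdown arrays and at 0.07 without the first of them.

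The small subunit, which reads the messenger RNA, had 20 of 27 genes below 0 and a median of -0.077, against -0.097 for the large subunit. Without knockdown replicate 1, 18 of the 27 lay below 0 and the median was -0.046. In 5 of its genes (18.5%) knockdown was below control without overlap, against 6.29% of all genes and 9.93% of the brightest 25% of genes. In 1 (3.70%) it was above, against 6.68% of all genes. MRPS11, the counterpart of bacterial S11, read 1202, 1557 and 1128 in knockdown and 1785, 1645 and 1610 in control, the lowest change of the subunit, at -0.37 (SE 0.14, limma adjusted p = 0.728). MRPS15, the counterpart of bacterial S15, read 8169, 10307 and 9427 in knockdown, against 10513, 13481 and 11827 in control. The highest knockdown array lay just below the lowest control array, and the log2 fold change was -0.36 (SE 0.14, limma adjusted p = 0.728). MRPS14, which has a bacterial counterpart, read 2819, 3229 and 3279 in knockdown and 3604, 3506 and 3757 in control, at -0.22. MRPS23, specific to mitochondria, read 2441, 2795 and 2948 in knockdown and 3053, 3098 and 3348 in control, at -0.21, or -0.14 without the first knockdown array. MRPS21, the counterpart of bacterial S21, read 5630, 8142 and 7911 in knockdown and 8703, 9010 and 7978 in control. The second knockdown array lay above the lowest control array, so the groups overlapped. Its log2 fold change was -0.26, and -0.091 without the first knockdown array, which was far below the others.

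MRPS5, the counterpart of bacterial S5, was the small subunit gene with all knockdown arrays above all control arrays. It read 2364, 2247 and 2441 in knockdown and 2089, 2110 and 2070 in control, at a log2 fold change of 0.17 (SE 0.09, limma adjusted p = 0.787). MRPS2 was at 0.12 (0.064 without knockdown replicate 1), MRPS34 at 0.07 and MRPS31 at 0.07. Of the probe sets with the strongest small subunit signal, MRPS6 was at -0.06, and of the dimmest, MRPS25 was at -0.05 and MRPS28 at -0.02. MRPS12, at the decoding centre in bacteria, was at -0.17, and at -0.10 without knockdown replicate 2.

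MRPS18A, MRPS18B and MRPS18C are paralogues of one another and counterparts of bacterial S18. MRPS18A read 914, 1128 and 935 in knockdown and 879, 1124 and 974 in control. MRPS18B read 1361, 2091 and 1912 in knockdown, against 1977, 2232 and 1566 in control. MRPS18C read 1889, 2146 and 2103 in knockdown, against 2232, 1956 and 1907 in control. All 3 had overlapping groups, with log2 fold changes of 0.00041, -0.11 and 0.01. In structures of the human ribosome MRPS18A and MRPS30 sit in the large subunit despite their names. MRPS30 was at 0.02, and with both counted as large, 39 of 50 large and 20 of 25 small subunit genes lay below 0, with medians of -0.094 and -0.095.

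**Figure D2:**
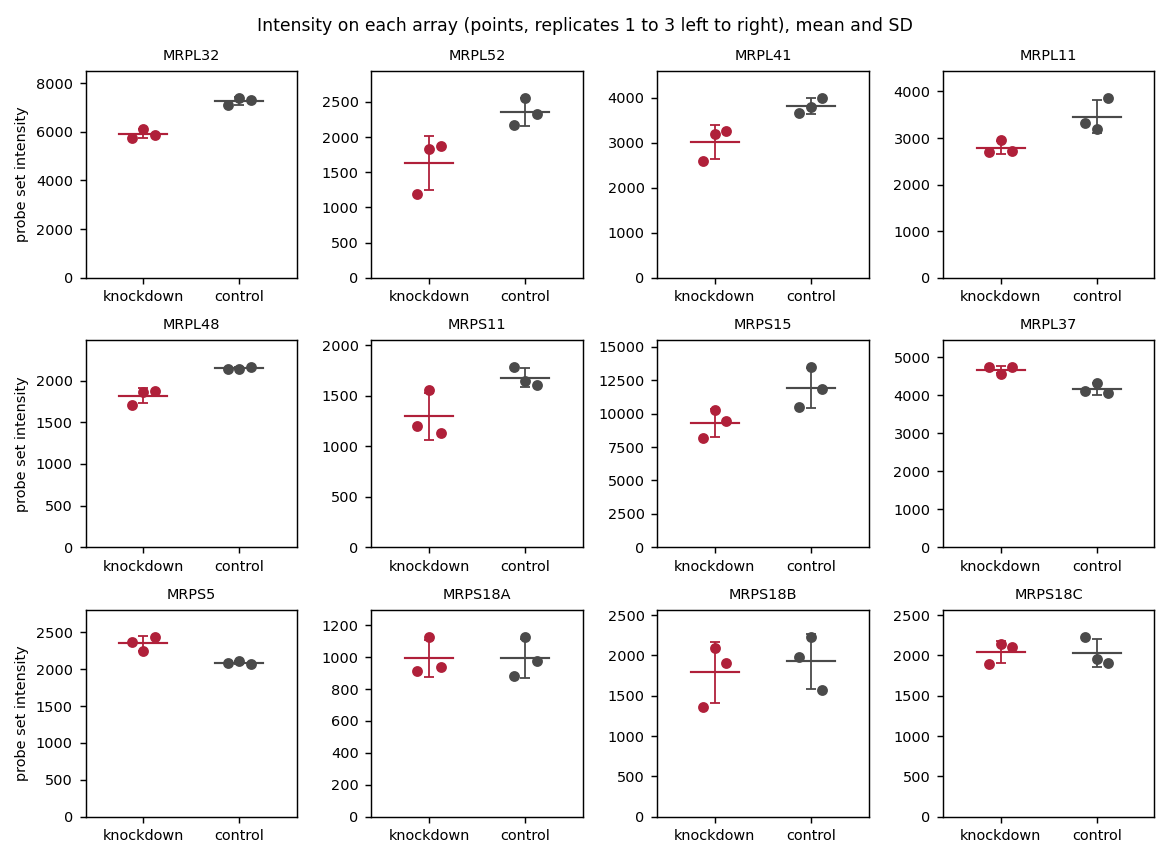
Intensity of 12 members on each array, knockdown left of control, with each group's mean and SD. The groups do not overlap for MRPL32, MRPL52, MRPL41, MRPL11, MRPL48, MRPS11, MRPS15, MRPL37 and MRPS5, and they overlap for the 3 MRPS18 paralogues.

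The remaining 9 of the 18 members with all knockdown arrays below control were MRPL1, MRPL13, MRPL14, MRPL18, MRPL33, MRPL34, MRPL54, MRPL57 and MRPS33. MRPL54, a mitochondria-specific protein, read 1091, 1827 and 1883 in knockdown and 2109, 2274 and 2051 in control, at a log2 fold change of -0.45 (SE 0.21, limma adjusted p = 0.759). Without the first knockdown array, far below the others, it was -0.20. MRPL33, a small protein with a bacterial counterpart whose promoter is printed above, read 3657, 4407 and 4381 in knockdown and 5020, 5292 and 4544 in control, at -0.26, or -0.17 without the first knockdown array. MRPL22, whose promoter is printed for its NRF1 motif, overlapped between the groups at 1818, 2125 and 1955 in knockdown and 2260, 2077 and 2300 in control, at -0.17. MRPL13 was at -0.26, MRPL14 at -0.24, MRPL57 at -0.22 and MRPL34 at -0.20. The separation was narrowest in MRPS33, with a gap of 0.569% of the control mean, and in MRPL1, with 0.883%. MRPS33 was at -0.11, MRPL18 at -0.10 and MRPL1 at -0.09. Without knockdown replicate 1, MRPL13 was at -0.15, MRPL57 at -0.12, MRPS33 at -0.031 and MRPL1 at -0.051, and without control replicate 3 MRPL18 was at -0.057.

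Counterparts of bacterial proteins and mitochondria-specific proteins gave like values. Of 45 members with a bacterial counterpart 36 lay below 0 with a median of -0.097, and of 26 mitochondria-specific members 19 lay below 0 with a median of -0.079. Without knockdown replicate 1 these were 31 of 45 at a median of -0.075 and 18 of 26 at -0.044. Another 4 members were not classed. MRPL46 and MRPS11 lie head to head on chromosome 15 with 319 bases between their starts, and were at -0.15 and -0.37, or -0.068 and -0.33 without knockdown replicate 1.

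The members did not shift by the same amount on every knockdown array. The mean log2 deviation of the 75 members from their own means over 6 arrays was -0.149, -0.019 and 0.007 in knockdown replicates 1, 2 and 3, and 0.046, 0.054 and 0.061 in the control replicates. All 3 knockdown values lay below all 3 control values, and the first knockdown array was the farthest from the rest. In the large subunit these values were -0.177, -0.029 and 0.023 in knockdown and 0.046, 0.059 and 0.078 in control. In the small subunit they were -0.100, -0.001 and -0.022 in knockdown and 0.046, 0.047 and 0.030 in control. The brightest 25% of genes stayed between -0.014 and 0.025 on every array. Knockdown replicate 1 held the lowest of the 6 values for 38 of 75 members (50.7%). Among all genes it was lowest in 20.4%, and among the brightest 25% of genes in 29.0%. Of the lists described below, it was lowest in 6 of 13 translation factors (46.2%) and 32 of 71 respiratory chain genes (45.1%). The counts were 11 of 29 assembly factors (37.9%) and 2 of 5 other mitochondrial ribosome proteins, so a low first array was not confined to the members. They were 3 of 10 regulators, 4 of 22 in the transcription and RNA list, 4 of 20 in the synthetase list and 3 of 60 cytoplasmic ribosomal proteins. On knockdown replicate 1 the deepest members were MRPL54 at -0.74, MRPL58 at -0.67, MRPL52 at -0.61 and MRPL36 at -0.58. These are log2 differences from the mean of the other knockdown arrays, and MRPL58 is a peptidyl-tRNA hydrolase built into the ribosome.

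MRPL58 read 699, 1172 and 1117 in knockdown and 1089, 1285 and 1129 in control, so the first knockdown array lay far below all the others while the other knockdown arrays lay among the controls. MRPL36, which has a bacterial counterpart, read 2301, 3143 and 3821 in knockdown, against 4052, 3187 and 3583 in control, again with the first array lowest and replicate 3 within the control range. Without that array MRPL58 was at -0.025, against -0.25 with it, and MRPL36 at -0.050, against -0.24. MRPL50 (-0.54), MRPS18B (-0.54), MRPL43 (-0.57) and MRPS21 (-0.51) had a like displacement of that array. Some members went the other way on it, with MRPL4 at 0.30, MRPS34 at 0.26 and MRPS2 at 0.18 against the mean of the other knockdown arrays. Knockdown replicate 1 lay above the knockdown mean in 23 of 75 members (30.7%), against 53.7% of all genes, counting 11 of 48 in the large and 12 of 27 in the small subunit. Knockdown replicates 2 and 3 lay above the knockdown mean in 49 (65.3%) and 56 (74.7%) of 75, against 46.4% and 48.2% of all genes. The deviations of a gene within a group sum to 0, so these counts are not separate from that of replicate 1. Among the control arrays the counts were 36, 35 and 41, close to even.

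**Figure D3:**
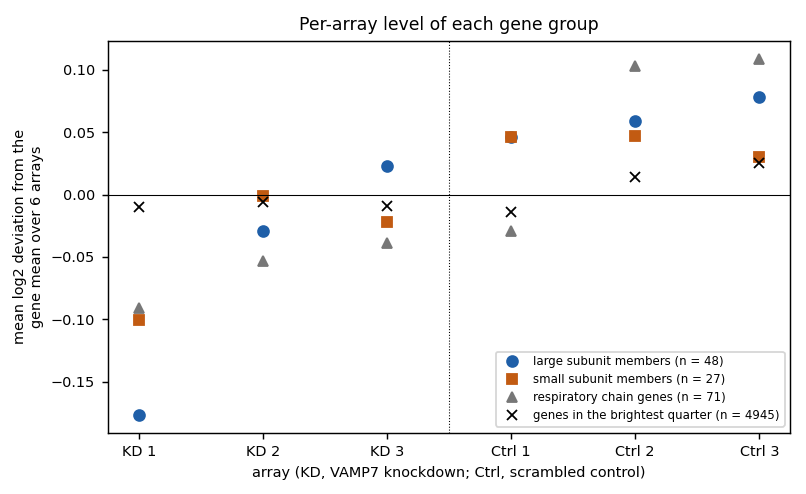
Mean log2 deviation from each gene's mean over the 6 arrays, with knockdown arrays left and control arrays right, for large subunit members, small subunit members, respiratory chain genes and the brightest 25% of genes. Knockdown replicate 1 has the lowest mean of both subunits, at -0.177 and -0.100.

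Within groups, pairs of large subunit genes were more alike between arrays than pairs of small subunit genes. The median correlation between pairs of genes, of their deviations from the group means over the 6 arrays, was 0.25 for the large subunit, -0.03 for the small subunit and 0.15 between the subunits, against 0.004 for all genes and 0.02 for the brightest 25% of genes. Pairs share arrays and, for these genes, the displacement of knockdown replicate 1, and these values are descriptions with no test. The same median was 0.31 for respiratory chain genes and 0.94 for cytoplasmic ribosomal proteins, both above that of the large subunit.

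Other genes of mitochondrial gene expression did not all lie on the same side. Of the 5 other mitochondrial ribosome proteins, 4 lay below 0, with a median of -0.15, or -0.089 without knockdown replicate 1. GADD45GIP1, which binds the large subunit, was at -0.32 (limma adjusted p = 0.736) and CHCHD1, of the small subunit, at -0.25, whereas OXA1L, the insertase that receives newly made proteins at the inner membrane, was at 0.26 (limma adjusted p = 0.723). DAP3 was at -0.04 and PTCD3 at -0.15, both small subunit proteins. Translation factors had 7 of 13 below 0 and a median of -0.01, and assembly factors 14 of 29 and 0.01. The transcription and RNA processing list had 10 of 22 and 0.01, and the aminoacyl-tRNA synthetase list 5 of 20 and 0.04. The transcription and RNA list also holds POLG, POLG2, TWNK and SSBP1, which serve mitochondrial DNA replication. The synthetase list also holds GATB, GATC and QRSL1, subunits of an amidotransferase that are not synthetases. The 10 regulators of mitochondrial genes had 4 below 0 and a median of 0.08. Without knockdown replicate 1 the counts below 0 were 5 of 13 translation factors, 14 of 29 assembly factors and 4 of 10 regulators. They were 8 of 22 in the transcription and RNA list and 10 of 20 in the synthetase list. Among those named by smallest p, GUF1, an elongation factor 4 homologue, was at 0.31, TACO1, a translational activator, at -0.20, MTG2, a GTPase of assembly, at 0.24, NSUN4, an rRNA methyltransferase, at 0.24 and TBRG4 at 0.25. HSD17B10, part of tRNA processing, was at -0.18 and MARS2, the methionyl synthetase, at 0.19. GABPB1, a subunit of GABP, was at -0.23 and PPRC1, a coactivator, at 0.23. Each of those named by smallest p here kept its sign over 15 alternative settings, but MTG2 ran from 0.0034 to 0.31 and GUF1 from 0.088 to 0.38.

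YARS2, the mitochondrial tyrosyl-tRNA synthetase, stood apart from its list. It read 4366, 7338 and 4019 in knockdown, against 1604, 1186 and 890 in control. Its log2 fold change was 2.04 (SE 0.28, limma adjusted p = 0.461), which misses the threshold.

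Genes of the respiratory chain and ATP synthase, most of whose complexes take in proteins made on this ribosome, had 64 of 71 below 0. Their median was -0.11. All knockdown arrays lay below all control arrays in 18 (25.4%), against 6.29% of all genes and 9.93% of the brightest 25% of genes. They lay above them in 0, against 6.68% of all genes. The 71 were taken by symbol and include ATP5IF1, an inhibitor of ATP synthase, and ATP5MC2P1, a pseudogene. Without those, 63 of 69 lay below 0, also at a median of -0.11, and 65 of 69 at -0.11 when knockdown replicate 1 was left out too. NDUFA2 was at -0.49 (limma adjusted p = 0.612) and NDUFA11 at -0.34 (limma adjusted p = 0.698), both of complex I. Cytoplasmic ribosomal proteins had 15 of 60 below 0 and a median of 0.03. Without knockdown replicate 1 they had 55 of 60 below 0 and a median of -0.10, so their direction turned. Control replicate 1 was displaced as well and held the lowest of the 6 values for 51 of 60. The mean log2 deviation of the list was 0.236, -0.089 and -0.110 in knockdown replicates 1, 2 and 3. In the control replicates it was -0.201, 0.124 and 0.041. Among these proteins were RPLP2, a stalk protein, at 0.46 and RPL39L, a paralogue of RPL39, at -0.30. The RPLP2 probe set was dim, at 144.6 to 192.3 in knockdown and 91.6 to 121.2 in control, below the median gene in signal. The difference between lists was not tested.

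**Figure D4:**
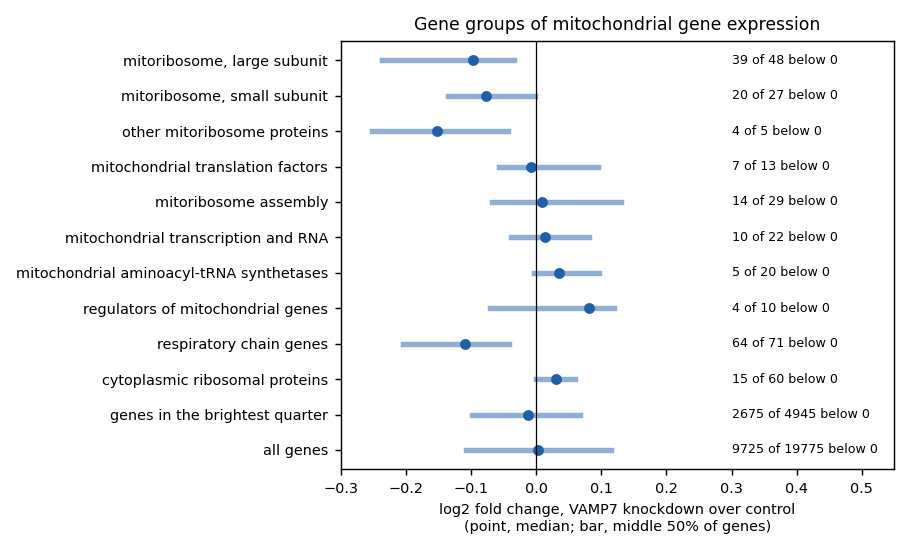
Median log2 fold change of knockdown over control (points) and the middle 50% of genes (bars) for each group, with the number of genes below 0 at the right. The medians of both ribosomal subunits, the other mitochondrial ribosome proteins and the respiratory chain genes lie between -0.15 and -0.08, and those of the remaining groups between -0.01 and 0.08, where the cytoplasmic ribosomal proteins move to -0.10 without knockdown replicate 1.

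The members' other probe sets lay nearer 0. Over all 140 probe sets 92 lay below 0 with a median of -0.056, against 47.2% of the 41091 probe sets that name 1 gene, and 0 passed an adjusted p of 0.05 (0.00243% of all such probe sets), and in limma 8 had an unadjusted p under 0.05, each of them lower in knockdown, against 2.69% of all such probe sets. Of the 65 probe sets not used for a gene value, 33 lay below 0 with a median of -0.002, and of the 43 of these with a mean intensity of 100 or more, 27 lay below 0 with a median of -0.016. The 22 probe sets under 100 had 6 below 0 and a median of 0.12. Of the probe sets used, 43 have names ending in _s_at, a mark for probes shared by several transcripts. Of these 38 lay below 0, with a median of -0.105. Among the 29 used whose names end in _at alone, 19 lay below 0, with a median of -0.056. This difference was not tested. In 26 genes with at least 2 probe sets of 100 or more, 14 had their brightest pair of probe sets both below 0, 1 had both above 0 and 11 had one on each side.

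**Figure D5:**
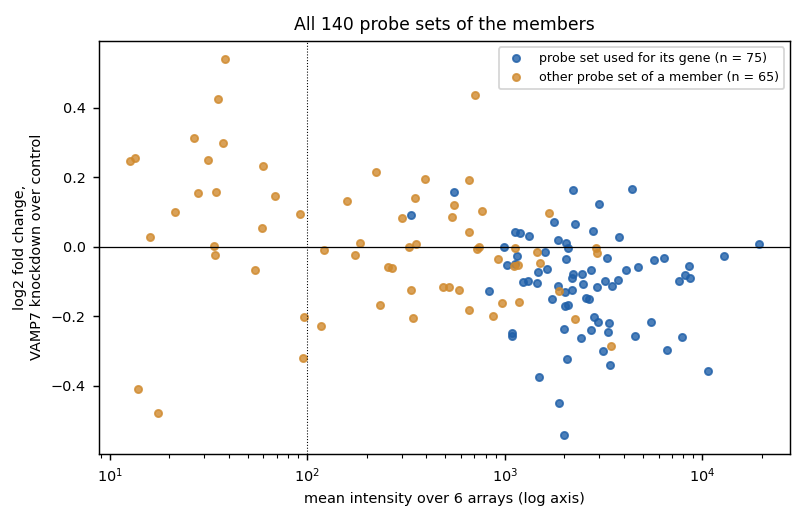
Log2 fold change of knockdown over control against the mean intensity over 6 arrays (log axis) for the 140 probe sets, with the probe set used for each gene (75) and the others (65) in separate colours. The used probe sets lie mostly below 0, and those under an intensity of 100, left of the dotted line, scatter on both sides.

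Among probe sets with a mean intensity of 100 or more, the 5 members whose probe sets differed most were MRPL57, MRPS12, MRPS11, MRPS22 and MRPL2. For MRPL57 the probe set used was at -0.22 with a mean intensity of 5515, and another at 0.44 with 704. For MRPS12 it was at -0.17 with 2028, and another at 0.22 with 223. For MRPS11 it was at -0.37 with 1488, and its other was at 0.01 with 184. For MRPS22 it was at -0.11, and the others at 0.10, -0.21 and -0.13, on probe sets whose names end in _x_at, a mark for probes that can match several transcripts. For MRPL2 it was at 0.09 with 336, and the other at -0.21 with 343. The second brightest probe set lay on the same side for MRPL41 at -0.20, MRPS15 at -0.29 and MRPL52 at -0.32, the last with a mean intensity of 95.4. The other 3 probe sets of MRPL41, each with a mean intensity under 100, were at 0.0038, 0.029 and 0.16, and the mean of its 5 probe sets was at -0.070. The 3 probe sets that name a member-like gene and a second gene were left out, at -0.22 for MRPL51 with SPTLC1, 0.01 for MRPS24 with its read-through gene and -0.19 for MRPL53 with CCDC142.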

How the data were processed

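Total RNA from 6 NTERA2/D1 samples was hybridised to human 3′ expression arrays. The deposited values are probe set intensities on a linear scale, and every array had the same trimmed mean, so the deposited intensities had been scaled per array. The submitters' processing notes name RMA, which gives log2 values, so it does not describe these linear intensities, and what software made them is not given in the sources used here. From the deposited intensities, log2(intensity + 50) was computed, which understates changes of dim probe sets. Signals of different probe sets were not read as amounts of different RNAs. The number of arrays limits the precision, and the smallest two-sided p of an exact permutation test of 3 against 3 is 0.1.

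Of 54675 probe sets, 41091 name 1 gene in the platform's annotation. Of these, 41037 had an identifier in a GRCh38.p14 gene table, from which symbols were taken. The probe set of highest mean log2 value over the 6 arrays stood for its gene. The groups were compared by lmFit and eBayes of limma 3.58.1 in R 4.3.3, with Benjamini-Hochberg adjustment over 19775 genes, and again over all 41091 probe sets. The code was tested on simulated data. The threshold for a call was an adjusted p of 0.05, and the lists have counts and medians only.

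The members and lists were chosen with earlier results of these data known. Beside VAMP7, the named genes were, per subunit, the 5 members on each side of 0 with the smallest p, the 3 brightest and 3 dimmest, the MRPS18 paralogues, MRPL12, MRPS30, the 5 whose probe sets of mean intensity 100 or more differed most, and 2 genes of each list. Members whose arrays did not overlap between groups, those lowest on knockdown replicate 1 and the divergent pair were named after their values were seen. Alternatives covered the offset, a signal filter, the mean of probe sets, 2 normalizations, 2 eBayes options, the replicate block and the omission of each array. The values without knockdown replicate 1 of members and lists outside the named genes, the counts of non-overlapping groups without 1 knockdown array, the respiratory chain list without 2 of its genes, and the letters of the promoter motifs, were chosen after seeing the data.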

Additional observations from a re-analysis of the deposited data

How the results depend on the processing

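Over 15 alternative settings, 0 members passed an adjusted p of 0.05 in limma, with 2 to 17 lower and 0 to 2 higher at an unadjusted p under 0.05, and the lowest adjusted p of a member was 0.436. VAMP7 stayed between -3.96 and -3.42. With an offset of 16 or with the mean of all probe sets of a gene, 2 of all genes were called, against 1. The count of members lower at an unadjusted p under 0.05 was 7 (9.33%, against 3.03% of all genes). It was 13 where dimmer genes than the median were left out (17.3%, against 4.41% of the genes kept), 11 after median centring (14.7%, against 4.30%) and 17 with an intensity trend (22.7%, against 3.51%), where 2 members were higher. With 1 array left out it ran from 2 to 7, and came near the share of all genes in 3 fits, with 3 without knockdown replicate 1 (4%, against 3.19%), 2 without control replicate 2 (2.67%, against 2.73%) and 3 without control replicate 3 (4%, against 2.70%). The count above 0 was 10 after median centring, against 16, and 14 to 24 with 1 array left out. Median centring put 57.9% of all genes below 0, against 49.2% in the main fit. With the mean of all probe sets of a gene, 53 members (70.7%) lay below 0, against 47.4% of all genes. The median of all members ran from -0.13 after median centring, where the median of all genes was -0.032, to -0.050 without knockdown replicate 1, and the small subunit median was -0.037 with the mean of probe sets. Same-numbered arrays did not deviate together (correlations -0.0055, 0.0134 and -0.0141), so the numbers were not taken as pairs, and the replicate block gave 6 members lower. Of 34 named members 19 kept their sign in every setting. With the mean of probe sets the sign turned for MRPL2 (-0.056), MRPS12 (0.062), MRPS18A (-0.091), MRPS25 (0.070) and NDUFA2 (0.068). Quantile normalization turned MRPL3 (0.023), and median centring turned MRPL51 (-0.027), MRPS18A (-0.034), MRPS18C (-0.024) and MRPS30 (-0.014). With 1 array left out the sign turned for these members, whose ranges were -0.016 to 0.090 for MRPL24, -0.083 to 0.048 for MRPL3, -0.26 to 0.066 for MRPL43, -0.098 to 0.070 for MRPL51, -0.091 to 0.090 for MRPS18A, -0.25 to 0.068 for MRPS18B, -0.032 to 0.079 for MRPS18C, -0.15 to 0.098 for MRPS28, -0.018 to 0.089 for MRPS30, -0.019 to 0.13 for MRPS31, -0.015 to 0.13 for MRPS34 and -0.090 to 0.010 for MRPS6. The cause of these turns was not tested. The median standard error of the members was 0.109, so changes of that size could not be told from 0 with 3 arrays a group.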
